A study of Mus musculus with 24 samples.

Results

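Homeobox, Fox, Sox and Zic genes encode transcription factors that divide the embryonic brain into territories and that many neurons and glia keep expressing in the adult. The members described here are the mouse genes whose symbol begins with Lhx, Zic, Dlx, Meis, Pbx, Irx, Pax, Shox, Otx, Nkx, Pou, Fox or Sox in the numbered form used for these families, or is of the sine oculis series to which Six3 belongs, each taken at its brightest probe set. They are 126 genes, with 258 probe sets, of 18194 genes that the array names by a single symbol. Of them 72 were bright enough to be tested, and 54 were left out as dim. The symbol rule also took Foxl2os, a transcript antisense to Foxl2 that encodes no such factor; it was among the dim ones.

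RNA of 2 brain regions was hybridised to Affymetrix mouse arrays, 24 in all, in 4 groups of 6 arrays. The groups are hippocampus from low freezing mice, hippocampus from high freezing mice, amygdala from low freezing mice and amygdala from high freezing mice. All the mice came from a cross of the strains C57BL/6J and A/J selected on contextual fear conditioning, a task that pairs a place with a shock and scores freezing there. The labels give no age, no generation and no count of animals per array, and p-values therefore measure the spread between arrays.

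In the vertebrate forebrain the pallium, which forms cortex and hippocampus, and the subpallium, which forms striatum and much of the extended amygdala, are built under different sets of these factors. Homeobox proteins bind DNA through a homeodomain, Fox proteins through a forkhead domain, Sox proteins through a high mobility group box and Zic proteins through zinc fingers. Lhx2 is known for keeping cortical and hippocampal identity, Dlx, Six3 and Meis2 for subpallial neurons, Shox2 for the thalamus, and Sox10 and Nkx2-2 for oligodendrocytes.

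Each value is a linear intensity in the units of the deposited table, in which the mean of every array without its top and bottom 2% was 150. Array medians lay between 36.85 and 43.58 units. Differences were tested as log2(intensity + 16), and a fold is on that scale, which understates the change of dim genes. A gene counts as called where the adjusted p from limma was under 0.05, adjusted over all 27022 probe sets kept. The background is the share called among 12467 genes at their brightest probe set.

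The labelled regions were checked against marker lists that hold none of the members. All 7 tested markers of dentate gyrus granule cells and 6 of 7 of the CA fields were lower in the amygdala, as were 24.6% of all genes. The remaining CA marker, Wfs1, was 1.27-fold higher (adjusted p = 0.02214 in limma), and Lct stands in both lists. All 8 markers of striatum and central amygdala were higher, as were 31.7% of all genes. Lists drawn up for other tissue were higher in the amygdala arrays as well. The summed intensity of 14 genes listed for thalamus, hypothalamus and midbrain was 471 to 655.7 units in the hippocampus arrays and 1285 to 4530 in the amygdala arrays. Of 11 tested genes 9 (81.8%) were higher. The brightest of them in the amygdala was Prkcd, with a mean of 1076 units. The next was Ramp3 at 392.5 units, so Prkcd weighs most in the sum. The list was not checked for genes that amygdala neurons also express. Whether the RNA of these genes came from outside the amygdala was not tested. For 10 genes of choroid plexus and ependyma the sum was 2001 to 13570 units in the hippocampus and 14560 to 21390 in the amygdala. Amygdala high 7 and amygdala high 12 were the lowest and the highest in the list of thalamus, hypothalamus and midbrain, at 1285 and 4530 units. In the list of striatum and central amygdala they were the reverse, at 11590 and 4275. In such bulk samples more cells of a type and more RNA per cell cannot be told apart.

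The windows before the start of 5 members are shown as examples. Shox2, Lhx8, Lhx2 and Zic1 had large regional differences, with Shox2 and Lhx8 near the bottom of the scale in the hippocampus, and Zic4 is the neighbour of Zic1. Foxp2, Pbx3, Sox10 and Pou3f1, which also differed, had no window in the source used. Each window holds the 250 bases before the annotated start, 5′ to 3′ on the gene's strand. The windows came from RefSeq on GRCm38.p6, with every CG dinucleotide in capitals. Shox2 lies at chr3:66981772-66982021 on the minus strand, Lhx8 at chr3:154330561-154330810 on the minus strand, Lhx2 at chr2:38339031-38339280 on the plus strand (the first of 2 windows listed), Zic1 at chr9:91365769-91366018 on the minus strand and Zic4 at chr9:91368722-91368971 on the plus strand.
Shox2: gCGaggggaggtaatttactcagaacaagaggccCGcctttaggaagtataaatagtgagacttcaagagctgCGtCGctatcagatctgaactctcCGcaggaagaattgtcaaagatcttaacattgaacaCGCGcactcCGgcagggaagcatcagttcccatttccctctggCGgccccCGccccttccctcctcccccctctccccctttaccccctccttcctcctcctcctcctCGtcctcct
Lhx8: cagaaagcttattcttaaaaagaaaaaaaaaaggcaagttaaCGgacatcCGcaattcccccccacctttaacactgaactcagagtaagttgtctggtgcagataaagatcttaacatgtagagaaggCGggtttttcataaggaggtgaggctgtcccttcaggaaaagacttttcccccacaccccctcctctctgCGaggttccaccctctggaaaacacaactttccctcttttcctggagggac
Lhx2: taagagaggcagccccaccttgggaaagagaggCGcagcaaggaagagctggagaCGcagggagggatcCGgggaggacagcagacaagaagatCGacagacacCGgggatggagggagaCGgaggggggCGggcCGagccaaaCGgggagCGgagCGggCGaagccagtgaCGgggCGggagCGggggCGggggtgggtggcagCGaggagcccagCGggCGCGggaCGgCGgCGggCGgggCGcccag
Zic1: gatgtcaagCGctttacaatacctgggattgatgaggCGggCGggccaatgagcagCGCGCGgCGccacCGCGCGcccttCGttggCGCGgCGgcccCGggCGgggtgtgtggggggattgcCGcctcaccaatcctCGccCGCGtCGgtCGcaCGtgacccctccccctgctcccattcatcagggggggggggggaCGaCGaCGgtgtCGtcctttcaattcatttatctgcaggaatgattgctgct
Zic4: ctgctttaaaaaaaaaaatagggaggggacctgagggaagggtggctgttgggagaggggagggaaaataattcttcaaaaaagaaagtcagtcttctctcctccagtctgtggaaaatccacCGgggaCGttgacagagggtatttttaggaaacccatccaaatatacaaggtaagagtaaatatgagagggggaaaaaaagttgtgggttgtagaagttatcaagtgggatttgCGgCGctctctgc
The Zic1 window held 27 CG dinucleotides and that of Zic4 held 4, although the starts of these genes lie 3203 bases apart and run in opposite directions. Lhx2 had 25, Shox2 had 11 and Lhx8 had 4. Of the 126 members 89 had a window. Their median CG count was 15 and their median GC content 62.8%, against 6 and 52% over all 27025 genes with a window. The ratio of observed to expected CG dinucleotides was 0.684 for the members and 0.378 for all. The Meis motif TGACAG, searched on both strands, was in the windows of 19.1% of members and of 16% of all genes; in the Zic4 window it starts 118 bases before the gene's start. The homeodomain core TAATTA was in 2.25% against 4.9%, the forkhead motif TGTTTAC in 2.25% against 3.09%, and the Sox motifs ACAATG and ACAAAG in 5.62% against 11% and 12.4% against 16.5%. These matches describe the letters of the windows and are not binding sites.

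Amygdala and hippocampus differed at 42 of the 72 members tested. In the amygdala 31 were higher and 11 were lower. The 31 are 43.1% of the members tested, where 31.7% of all genes were called higher, and the 11 are 15.3%, where 24.6% were called lower. With arrays centred on their median the genes called over the whole array were 24.55% higher and 32.16% lower, while the members were 31 higher and 15 lower. At least 2-fold higher were 16 of 72, or 22.2%, against 4.41% of all genes, and at least 2-fold lower were 3, or 4.17%, against 2.52%. In 16 members, again 22.2%, every amygdala array lay above every hippocampus array, against 9.87% of all genes, and in 5 members, or 6.94%, every amygdala array lay below, against 7.25%. The filter on dim genes bears on these counts. Of the 72 members 11 passed it only through the amygdala: Foxf2, Foxj1, Irx1, Irx3, Lhx8, Meis1, Nkx6-2, Otx2, Shox2, Six4 and Zic4. All of them but Foxf2 were called higher, and they hold 6 of the 16 members with at least 2-fold and 5 of the 16 without overlap. Passing in this way favours a higher amygdala value without forcing a call. Over the whole array 218 of 313 such genes were called higher. Nothing is therefore read from these counts. No member passed only through the hippocampus. Among the 61 members whose means in both regions were at or above the limit, 21 (34.4%) were higher and 11 (18%) lower, against 31% and 25% of the 12049 genes of that kind. At least 2-fold higher were 10 of the 61 (16.4%, against 3.92%), and 11 (18%, against 9.59%) had every amygdala array above every hippocampus array. For the 10 called genes that passed only through the amygdala the hippocampal level is close to the bottom of the scale, and each fold given for them is set by the offset of 16. Their p-values are printed below beside the estimates and are not taken as support for a difference.

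**Figure D1:**
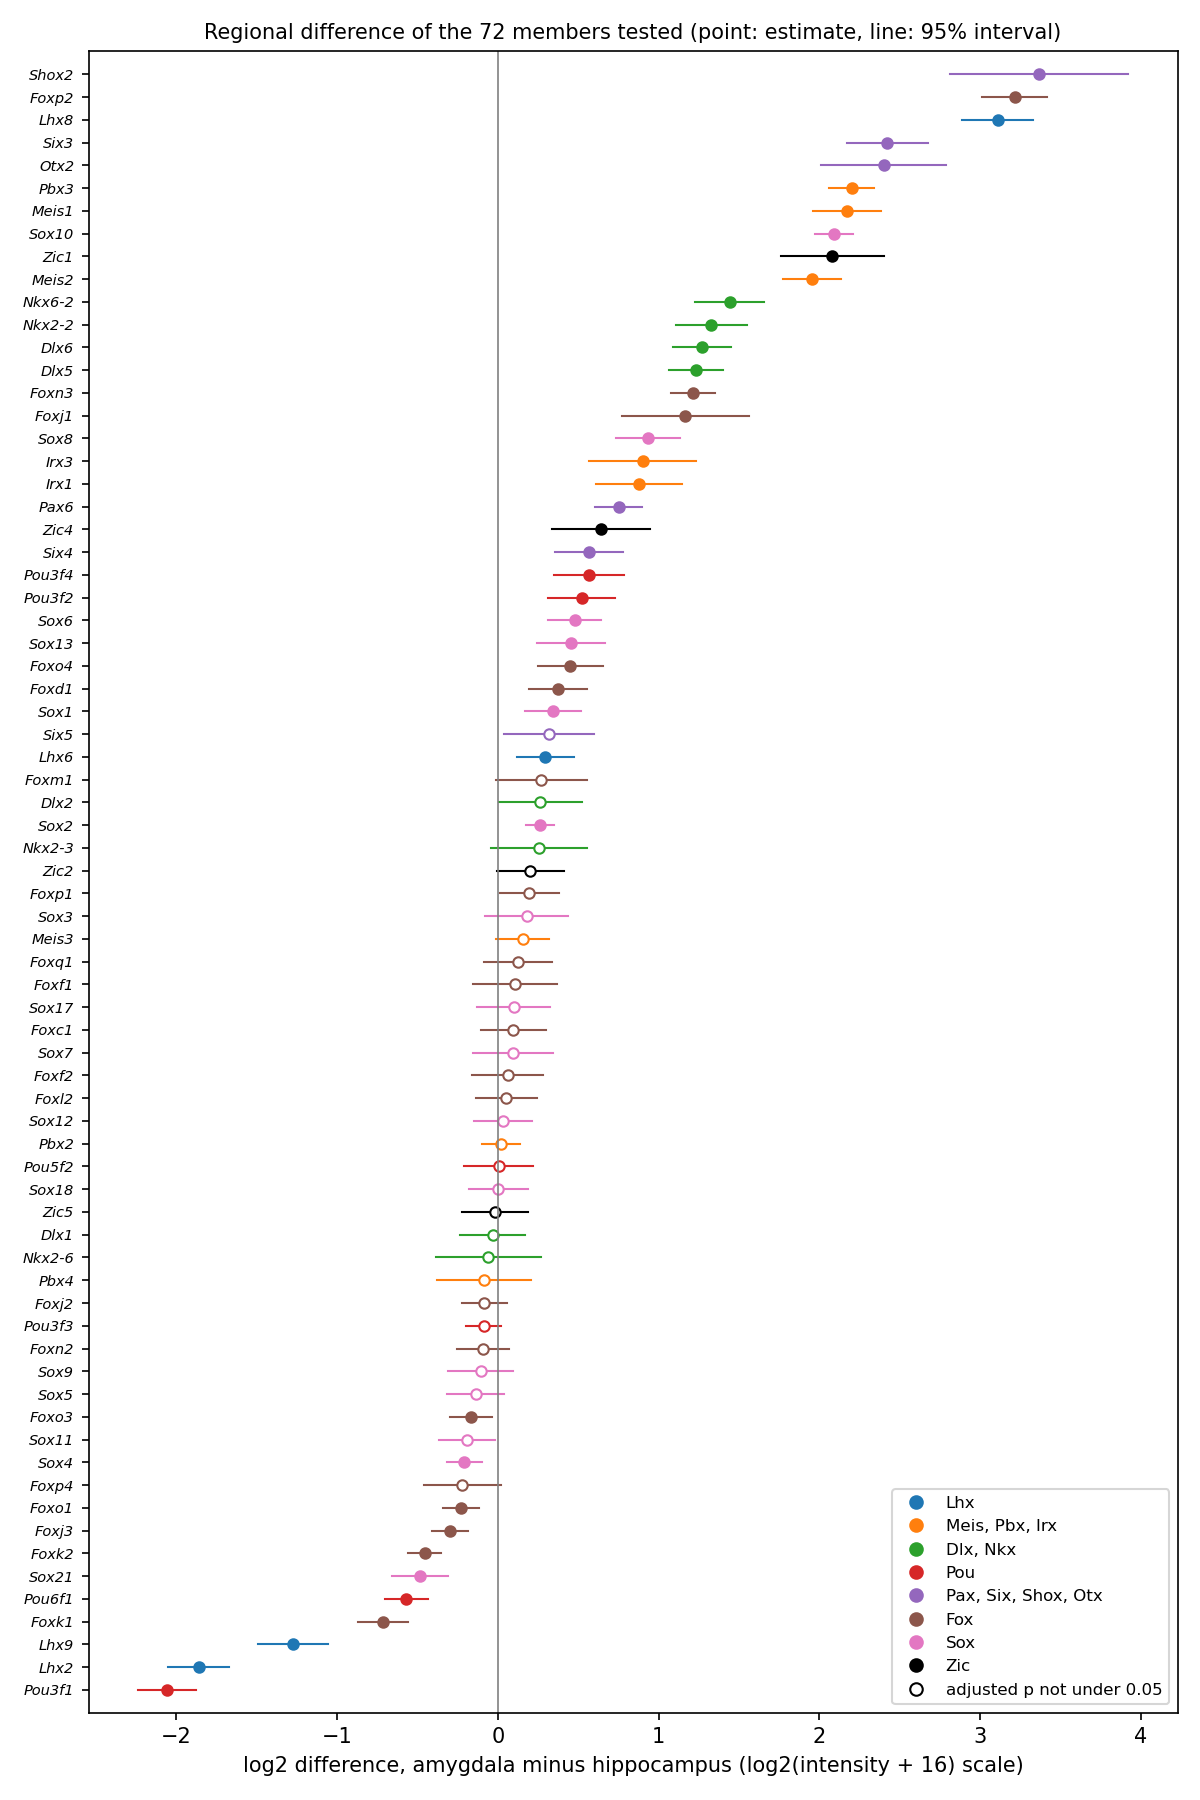
The log2 difference of amygdala minus hippocampus is plotted for the 72 members tested, with 1 row per gene, a point for the estimate, a line for its 95% interval and the colour for the gene family. Open points did not pass the threshold; the row at the top is Shox2 at 3.37 and the row at the bottom Pou3f1 at -2.06.

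The LIM homeobox genes split in direction, with 2 higher, 2 lower and none uncalled among the 4 tested. That is 50% each way, against 31.7% and 24.6% of all genes, and Lhx8 passed the filter only through the amygdala. Lhx8, a factor of forebrain cholinergic and other subpallial neurons, was at 0.2775, 3.031 and 11.93 units in the hippocampus (lowest, median and highest of 12 arrays) and at 110.7, 156.7 and 198.2 in the amygdala. The regions did not overlap, with a log2 difference of 3.11 ± 0.11 SE (adjusted p = 8.514e-20) that was 5.30 with an offset of 1 and 1.69 with an offset of 64. Lhx2, the selector of cortical and hippocampal identity, went the opposite way, at 612.7, 710.1 and 811.5 units in the hippocampus and 130.1, 182.1 and 260.7 in the amygdala. Here too the regions stood apart, with the amygdala 3.63-fold lower (adjusted p = 2.245e-16). Lhx9, a close relative of Lhx2 that also marks thalamic neurons, was at 68, 79.41 and 87.8 units in the hippocampus and 9.516, 23.29 and 44.07 in the amygdala, 2.42-fold lower (adjusted p = 2.502e-11). Its highest amygdala arrays were high 12 at 44.07 and low 5 at 39.26, which were also the highest for Shox2. Lhx6, a factor of interneurons from the medial ganglionic eminence, had overlapping regions and a smaller difference, 1.23-fold higher in the amygdala (adjusted p = 0.005746).

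The TALE homeobox genes Meis, Pbx and Irx encode partners that bind DNA together with other homeodomain proteins. Of 8 tested 5 (62.5%) were higher in the amygdala and none lower, against 31.7% and 24.6% of all genes. Meis1, Irx1 and Irx3 passed the filter only through the amygdala, so nothing is read from this count. Pbx3 was at 60.36, 90.05 and 107.8 units in the hippocampus and 384.3, 464.7 and 538.3 in the amygdala, 4.60-fold higher with no overlap (adjusted p = 9.387e-21). Meis2, a factor of striatal and amygdalar projection neurons, was the brightest gene of this group at 211, 259.8 and 361.3 units in the hippocampus and 792.6, 1065 and 1410 in the amygdala. That is 3.87-fold higher (adjusted p = 2.956e-17), and all 4 of its probe sets were called higher. Meis1 was at 1.035, 2.566 and 14.98 units in the hippocampus, near the bottom of the scale, and 53.1, 76.94 and 87.74 in the amygdala (log2 2.17, adjusted p = 6.485e-17; 1.02 with an offset of 64). The Iroquois genes Irx1 and Irx3, which set boundaries in the embryonic diencephalon, were dimmer and their regions overlapped. Irx1 was higher in the amygdala (log2 0.88), with means of 39.96 ± 12.04 against 15.07 ± 9.41 units (SD, n = 12 each, adjusted p = 1.707e-06), and Irx3 was 1.87-fold higher (adjusted p = 2.646e-05). Pbx2, Pbx4 and Meis3 did not pass, with log2 differences of 0.02, -0.09 and 0.15.

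Dlx genes drive GABAergic development in the subpallium, and Nkx genes specify ventral territories and, in Nkx2-2 and Nkx6-2, oligodendrocytes. Of 8 tested 4 (50%) were higher in the amygdala, each without overlap of the regions, and none was lower. Over all genes 31.7% were higher, 24.6% lower and 9.87% higher without overlap. Nkx6-2 passed the filter only through the amygdala. Dlx5 was at 32.39, 43.43 and 56.56 units in the hippocampus and 97.14, 134.4 and 151.9 in the amygdala, 2.35-fold higher (adjusted p = 1.243e-13). Its neighbour Dlx6 was at 21.8, 25.64 and 42.75 units against 72.86, 93.46 and 111.5, a 2.41-fold difference (adjusted p = 4.061e-13). The other Dlx pair gave different values. Dlx1, the brightest of these genes, was at 75.62, 106.8 and 187.2 units in the hippocampus and 72.15, 109.2 and 138.3 in the amygdala, with a log2 difference of -0.03 (95% interval from -0.24 to 0.17). Dlx2 was at 38.36 ± 14.19 and 48.5 ± 12.16 units (SD, n = 12 each) and did not pass either (log2 0.26, adjusted p = 0.07984). Nkx6-2 was at 12.19, 20.04 and 31.78 units in the hippocampus and 51.03, 85 and 109.2 in the amygdala, higher without overlap (log2 1.44, adjusted p = 1.154e-12; 1.99 or 0.80 with offsets of 1 or 64). For Nkx2-2 the values were 20.6, 38.36 and 62.01 units against 88.56, 123.3 and 150.7, a 2.51-fold difference (adjusted p = 1.174e-11). All 10 tested genes of the oligodendrocyte list were higher in the amygdala as well, against 31.7% of all genes. Their sums were 15440 to 20720 units in the hippocampus and 39070 to 54120 in the amygdala, and their part in the Nkx2-2 and Nkx6-2 differences was not tested. Nkx2-3 and Nkx2-6 were near the filter and did not pass.

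Of Pax6, Six3, Six4, Six5, Shox2 and Otx2, all homeodomain proteins, 5 of 6 (83.3%) were higher and none was lower, against 31.7% and 24.6% of all genes. As Shox2, Otx2 and Six4 passed the filter only through the amygdala, nothing is read from this count. Shox2, a thalamic factor, had the widest spread of all tested members within the amygdala on the log2 scale, and the highest log2 difference at the offset used here. It was at 0.7902, 5.076 and 41.08 units in the hippocampus and 47.91, 246.3 and 675.1 in the amygdala, and the lowest amygdala array lay just above the highest hippocampus array. The log2 difference was 3.37 ± 0.27 SE (adjusted p = 1.013e-11). Because the hippocampal values are near 0 it depended on the offset, at 5.06 with an offset of 1, where Lhx8 was higher at 5.30, and 2.07 with an offset of 64, where Foxp2 was higher at 2.34. Six3, a factor of striatal neurons, was at 14.67, 26.5 and 72.73 units in the hippocampus and 187.2, 221.3 and 267.5 in the amygdala. The regions stood far apart, at 5.36-fold (adjusted p = 3.15e-16). Otx2, a factor of the midbrain and of choroid plexus epithelium in the adult, was at 0.3873, 10.82 and 22.83 units in the hippocampus and 57.06, 116.9 and 202.3 in the amygdala (log2 2.40, adjusted p = 8.675e-12; 4.06 or 1.30 with offsets of 1 or 64). The choroid plexus list, at 14560 to 21390 units in the amygdala and 2001 to 13570 in the hippocampus, moved with Otx2 between the regions, and its part in the difference was not tested. Pax6, known from cortical progenitors and some amygdalar neurons, was at 41.21, 51.71 and 89.67 units in the hippocampus and 86.48, 103.4 and 124 in the amygdala, with slight overlap and a 1.68-fold difference (adjusted p = 5.565e-10). Six4 was 1.48-fold higher and the uncalled member was Six5 (log2 0.32, adjusted p = 0.05198).

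POU genes encode factors with a paired POU-specific domain and homeodomain. Of 6 tested 2 were lower, 2 higher and 2 uncalled. That is 33.3% each way, where 24.6% of all genes were lower and 31.7% higher. Pou3f1, known from cortical projection neurons and from myelinating Schwann cells, was the lowest of all members in log2 difference. It was at 427.6, 543.3 and 591.9 units in the hippocampus and 60.64, 115.5 and 153.1 in the amygdala, 4.17-fold lower with no overlap (log2 -2.06 ± 0.09 SE, adjusted p = 7.255e-18). Its other probe set above the filter was also lower (log2 -1.52). Pou6f1 was at 646, 843.8 and 1039 units in the hippocampus and 461.5, 535.1 and 685.3 in the amygdala, 1.48-fold lower with overlap (adjusted p = 1.73e-08). The related genes of class III did not share a direction. Pou3f2 and Pou3f4 were 1.44- and 1.48-fold higher in the amygdala (adjusted p = 8.276e-05 and 4.801e-05), whereas Pou3f3, the brightest Pou gene at 796.1 ± 61.02 units in the hippocampus and 749.3 ± 76.55 in the amygdala (SD, n = 12 each), did not pass (log2 -0.09, adjusted p = 0.1661; -0.16 and 0.01214 with arrays centred on their median).

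**Figure D2:**
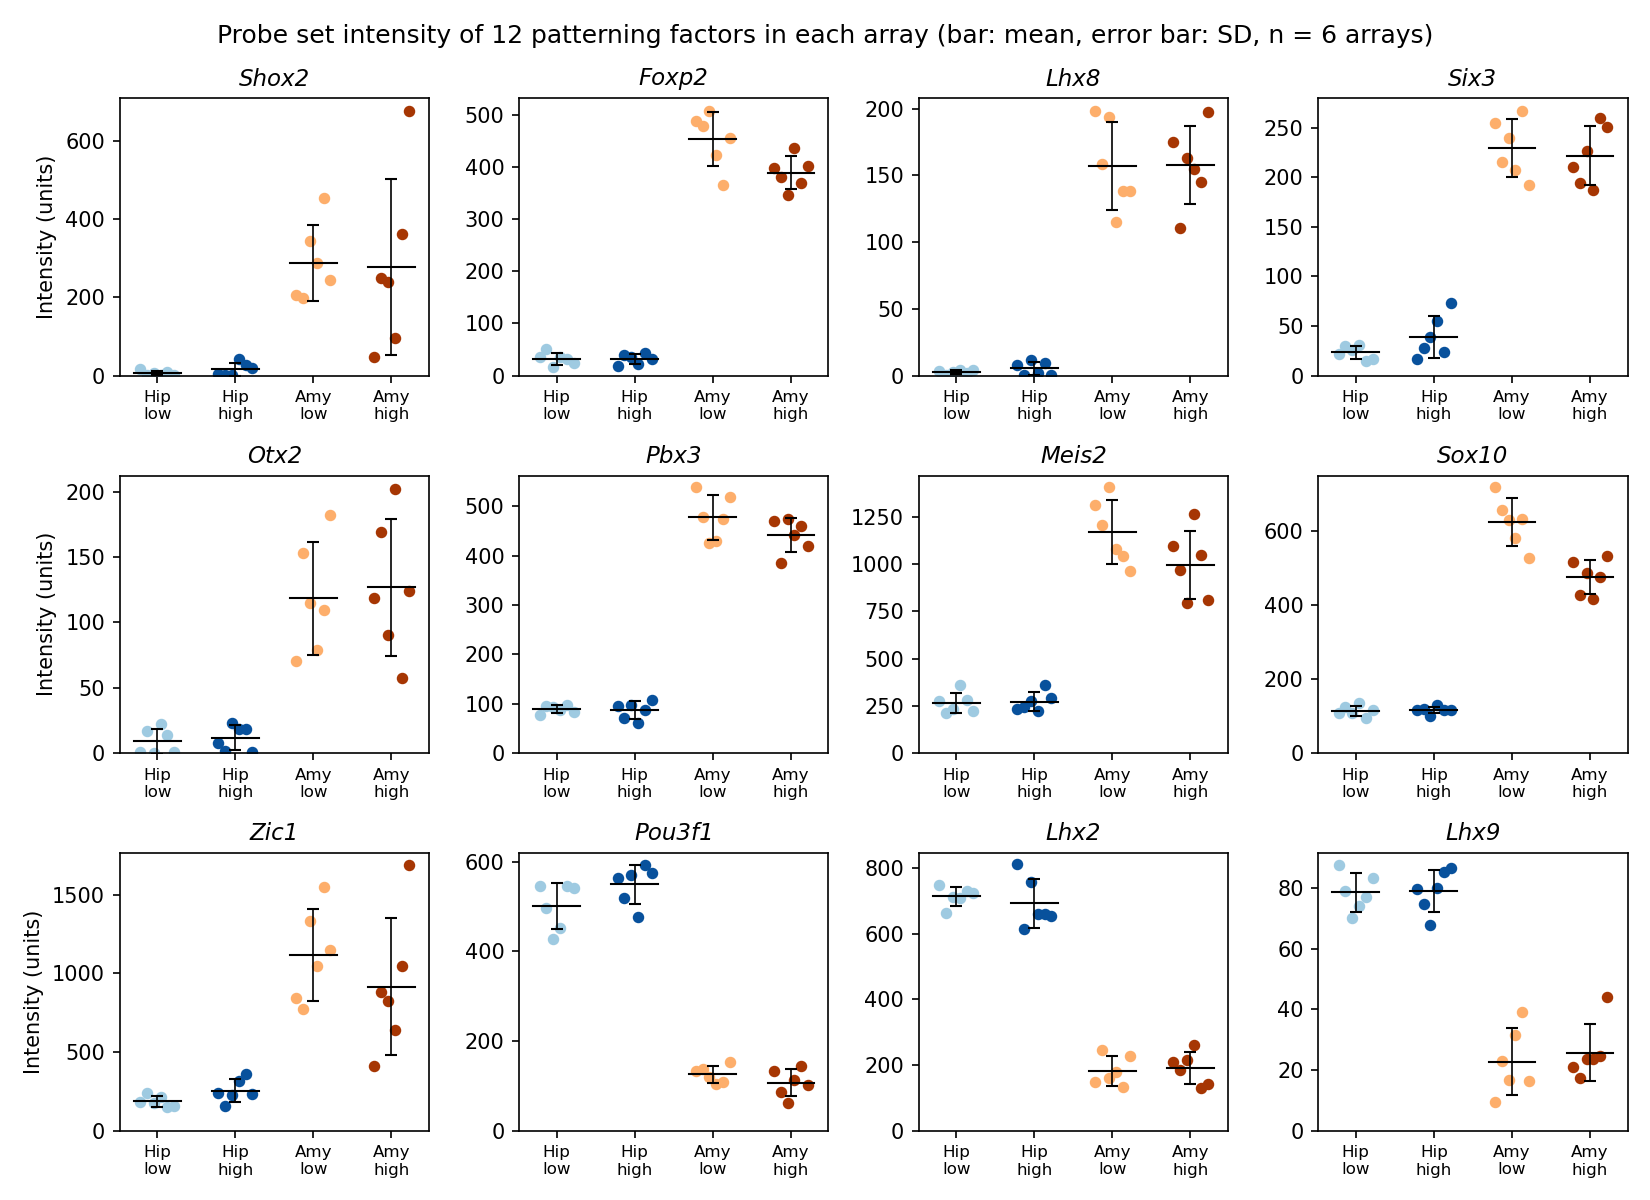
Intensity in units is plotted for 12 members in each of the 24 arrays, with hippocampus low and high in blue and amygdala low and high in orange and brown, a bar for the mean and an error bar for the SD of 6 arrays. In these 12 genes every array of 1 region lies above every array of the other. On the log2 scale, which is not the scale plotted, Shox2, Zic1 and Otx2 spread most widely of the 12 within the amygdala.

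Of 20 forkhead genes 5 were higher, 5 lower and 10 uncalled. That is 25% in each direction, below the background for higher genes and near it for lower ones. Foxp2, a repressor of striatal and amygdalar projection neurons, was at 15.99, 33.12 and 51.19 units in the hippocampus and 346.1, 413.7 and 508.7 in the amygdala, 9.29-fold higher with no overlap (log2 3.22 ± 0.10 SE, adjusted p = 9.387e-21). All 5 of its probe sets above the filter were called higher. Foxn3, a repressor linked to the cell cycle, was at 159.4, 202.9 and 252 units against 444.5, 480.6 and 667.9, a 2.32-fold difference (adjusted p = 1.789e-15). Foxj1, which switches on motile cilia in ependyma, was 2.25-fold higher with overlap (69.7 ± 23.01 against 23.73 ± 14.95 units, SD, n = 12 each, adjusted p = 8.191e-06). It passed the filter only through the amygdala. In the list of choroid plexus and ependyma 9 of 10 tested genes (90%) were higher, against 31.7% of all genes. Its brightest gene was Ttr, Ccdc153 was 1.72-fold higher and Enkur was uncalled (log2 0.23, adjusted p = 0.2736 in limma). The part of this list in the Foxj1 difference was not tested. Foxd1 and Foxo4 were 1.30- and 1.37-fold higher. Among the 5 lower genes Foxk1 was at 177.5, 250.7 and 291.5 units in the hippocampus and 108, 142.4 and 175.7 in the amygdala, 1.64-fold lower (adjusted p = 3.003e-09). Foxk2, the other member of that repressor pair, was at 371.4, 414.2 and 468.2 units against 249.8, 292.4 and 350.9, 1.37-fold lower (adjusted p = 5.748e-09). At these probe sets neither of them had overlapping regions. The other tested probe set of Foxk1, dimmer at a mean of 24.84 units, had a log2 difference of -0.005 (adjusted p = 0.9751 in limma). Further probe sets of Foxk2 were called lower (log2 -0.22 and -0.40), and its dimmest tested ones were uncalled (0.06 and -0.09). Foxj3, the brightest Fox gene, was at 1017 ± 54.39 units in the hippocampus and 830.3 ± 107.1 in the amygdala (SD, n = 12 each), 1.23-fold lower with overlap (adjusted p = 3.237e-05). The FoxO genes, nuclear effectors of insulin signalling, were apart: Foxo1 was 1.17-fold lower (adjusted p = 0.0009591) and Foxo4 higher. Foxo3 was 1.12-fold lower at its brightest probe set (adjusted p = 0.03126), but at its second probe set of like brightness the log2 difference was 0.00 (adjusted p = 0.9666). Foxp1, a striatal factor, did not pass at its brightest probe set (log2 0.20, adjusted p = 0.06506), though it was called higher at 2 dimmer ones (log2 0.50 and 0.45).

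Sox genes had 6 of 16 higher (37.5%, near the background of 31.7%), 2 lower (12.5%, against 24.6%) and 8 uncalled. Sox10, the factor that oligodendrocytes need for myelin genes, was at 94.79, 116.2 and 133.7 units in the hippocampus and 416.7, 528.4 and 717.7 in the amygdala. That is 4.27-fold higher with no overlap (log2 2.09 ± 0.06 SE, adjusted p = 1.242e-21). At its other 2 probe sets above the filter, which are dimmer, the log2 difference was 0.86 and 0.50, and it was 1.15 for the mean of its probe sets. Sox8, its relative in the same subgroup, was at 60.85, 89.38 and 110.8 units against 131.9, 180.3 and 246.2, 1.91-fold higher (adjusted p = 2.806e-09). The oligodendrocyte list moved with Sox10 and Sox8 as with Nkx2-2, and its part in their differences was not tested. Sox2, the brightest Sox gene and a factor of progenitors and astrocytes, was at 484, 545.7 and 604.1 units in the hippocampus and 569.5, 650 and 730.7 in the amygdala. The overlap was narrow and the difference 1.20-fold (adjusted p = 9.426e-06). Sox1, Sox6 and Sox13 were between 1.27- and 1.39-fold higher. Lower in the amygdala were Sox21, a repressor that counteracts Sox2 in progenitors, at 90.75 ± 11.96 against 60.65 ± 11.86 units (SD, n = 12 each, 1.40-fold, adjusted p = 1.568e-05), and Sox4, a factor of immature neurons, 1.16-fold (adjusted p = 0.001654). The endothelial genes Sox7, Sox17 and Sox18 did not pass, with log2 differences of 0.09, 0.10 and 0.00. Sox5 was uncalled at its brightest probe set (log2 -0.14) and lower at a dimmer one (log2 -0.42).

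Zic genes, which act in the dorsal midline, the septum and the thalamus, were all bright enough to be tested. Higher were 2 of 4 (50%, against 31.7% of all genes), of which Zic4 passed the filter only through the amygdala. Zic1 was at 150.3, 220.9 and 357.2 units in the hippocampus and 410.8, 962.2 and 1688 in the amygdala, 4.23-fold higher with no overlap (log2 2.08 ± 0.16 SE, adjusted p = 2.486e-12). Zic4, next to it, was near the bottom of the scale, at 1.127, 20.86 and 39.93 units against 23.21, 35.93 and 61.52, 1.56-fold higher with overlap (adjusted p = 0.0006041). The pair Zic2 and Zic5 did not pass, with log2 differences of 0.20 and -0.02 (adjusted p = 0.09875 and 0.9023). Among 6 pairs of neighbouring members with both genes tested, Dlx5 with Dlx6 and Zic1 with Zic4 were called higher as pairs. In the other 4, Dlx1 with Dlx2, Zic2 with Zic5, Foxq1 with Foxf2 and Foxf2 with Foxc1, neither gene was called. The like share among all neighbouring genes was not counted, and Zic4 passed the filter only through the amygdala. Nothing is read from these 6 pairs.

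**Figure D3:**
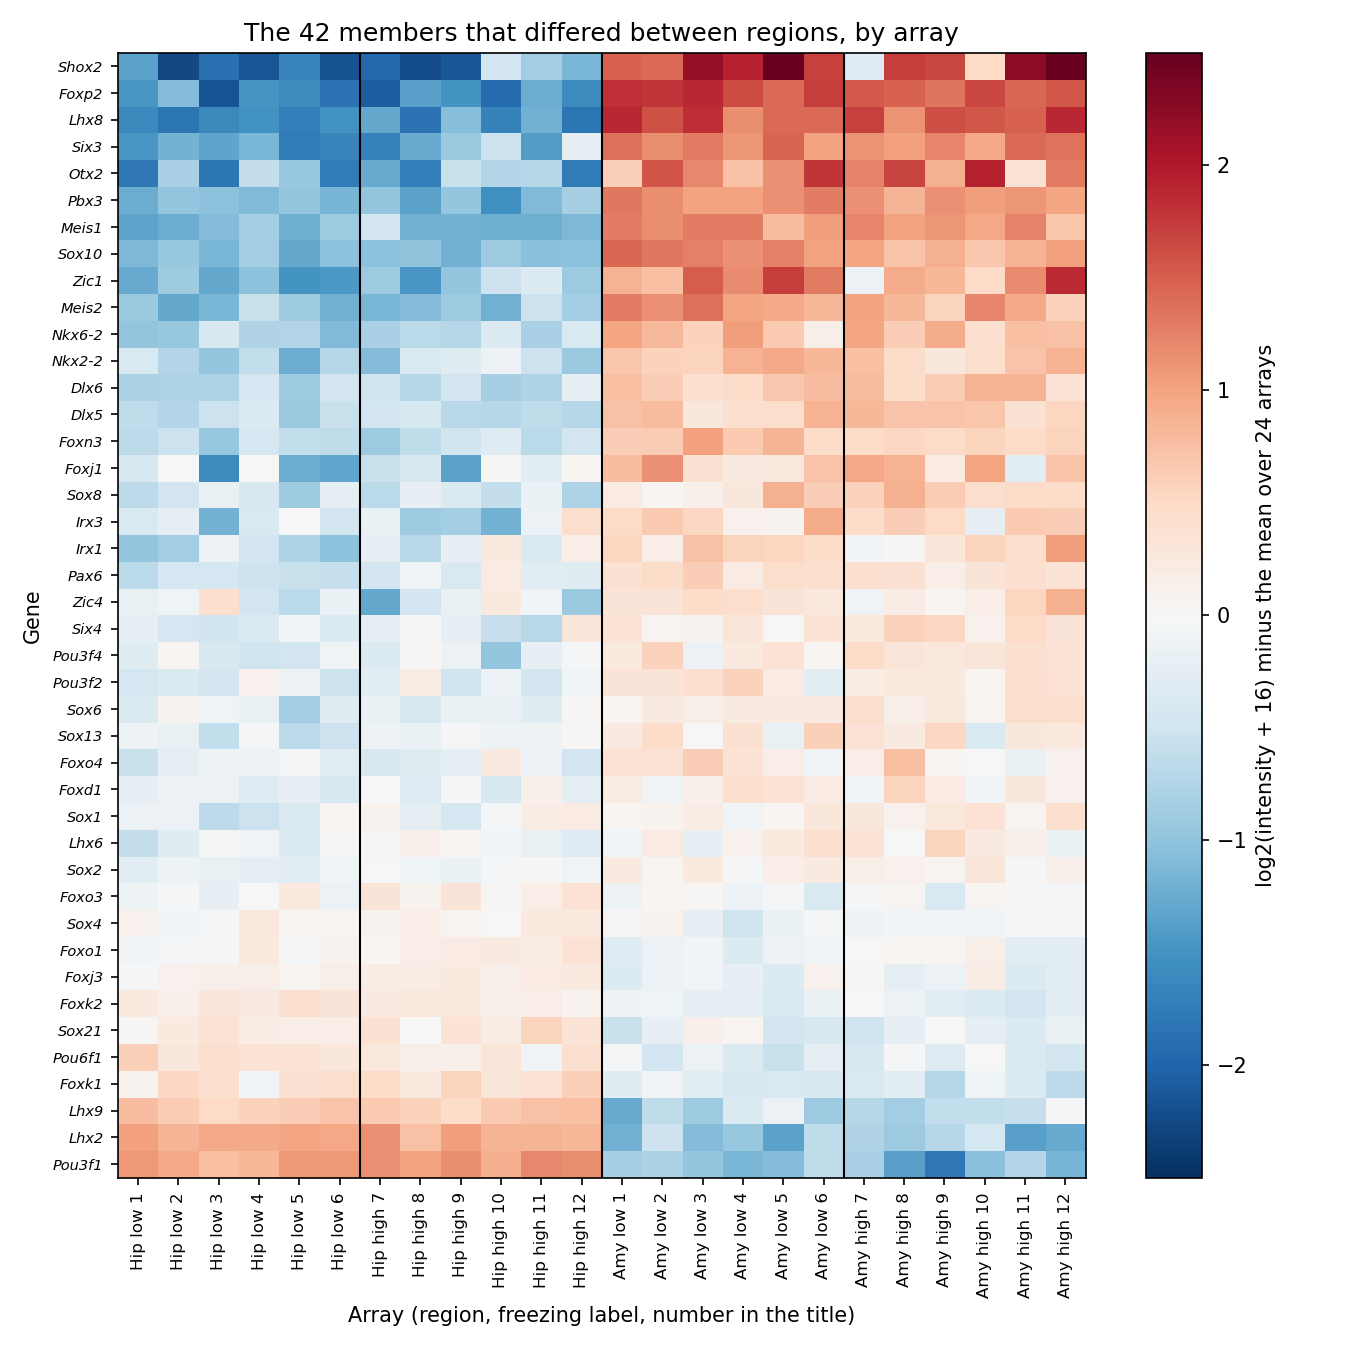
The 42 members called between the regions are plotted as rows, ordered by log2 difference, over the 24 arrays as columns, with colour for log2(intensity + 16) minus the gene's mean over all arrays, limited to 2.5 on either side. The 31 upper rows are higher in the amygdala columns and the 11 lower rows are lower there, and no member passed the freezing comparison within a region.

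Within the amygdala Shox2 and Zic1 varied together. The Shox2 values of the low freezing arrays 1 to 6 were 205.5, 197, 344.5, 287.5, 452.4 and 243.5 units, and those of the high freezing arrays 7 to 12 were 47.91, 249.1, 237.8, 96.23, 361 and 675.1. For Zic1 they were 845, 774.8, 1335, 1046, 1551 and 1147 units in the low and 410.8, 878.5, 826.2, 638.4, 1047 and 1688 in the high group. High 7 and high 10 were the lowest for both genes, high 12 and low 5 the highest, and the freezing groups overlapped. Pearson's r over the 12 arrays was 0.959 and Spearman's rho 0.937. It was 0.891 over 10 arrays, without the 2 farthest from the median of Shox2, and 0.947 and 0.986 within the low and the high freezing arrays. The 5 relations between arrays given here were chosen after the values were seen, so they are descriptions and carry no test.

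The summed list of thalamus, hypothalamus and midbrain, in which Prkcd weighs most, followed the same order of arrays. With Shox2 its r was 0.916 and its rho 0.895, and r was 0.861 without 2 arrays, 0.683 within the low and 0.972 within the high group. With Zic1 its r was 0.871 and its rho 0.86, 0.752 without 2 arrays, 0.569 within the low and 0.96 within the high group. The list of striatum and central amygdala ran the opposite way, at r = -0.686 with Shox2 (rho -0.643) and r = -0.664 with Zic1 (rho -0.608). Within the low and the high group these were -0.659 and -0.859 for Shox2 and -0.74 and -0.894 for Zic1. Without the 2 arrays farthest from the median of this list, amygdala high 7 and high 12, r was -0.35 for each gene. Both pooled values thus depend in part on these 2 arrays, but the values within the low group hold neither of them. Without amygdala high 7 and high 12 the regional log2 difference was 3.39 for Shox2 and 2.08 for Zic1.

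**Figure D4:**
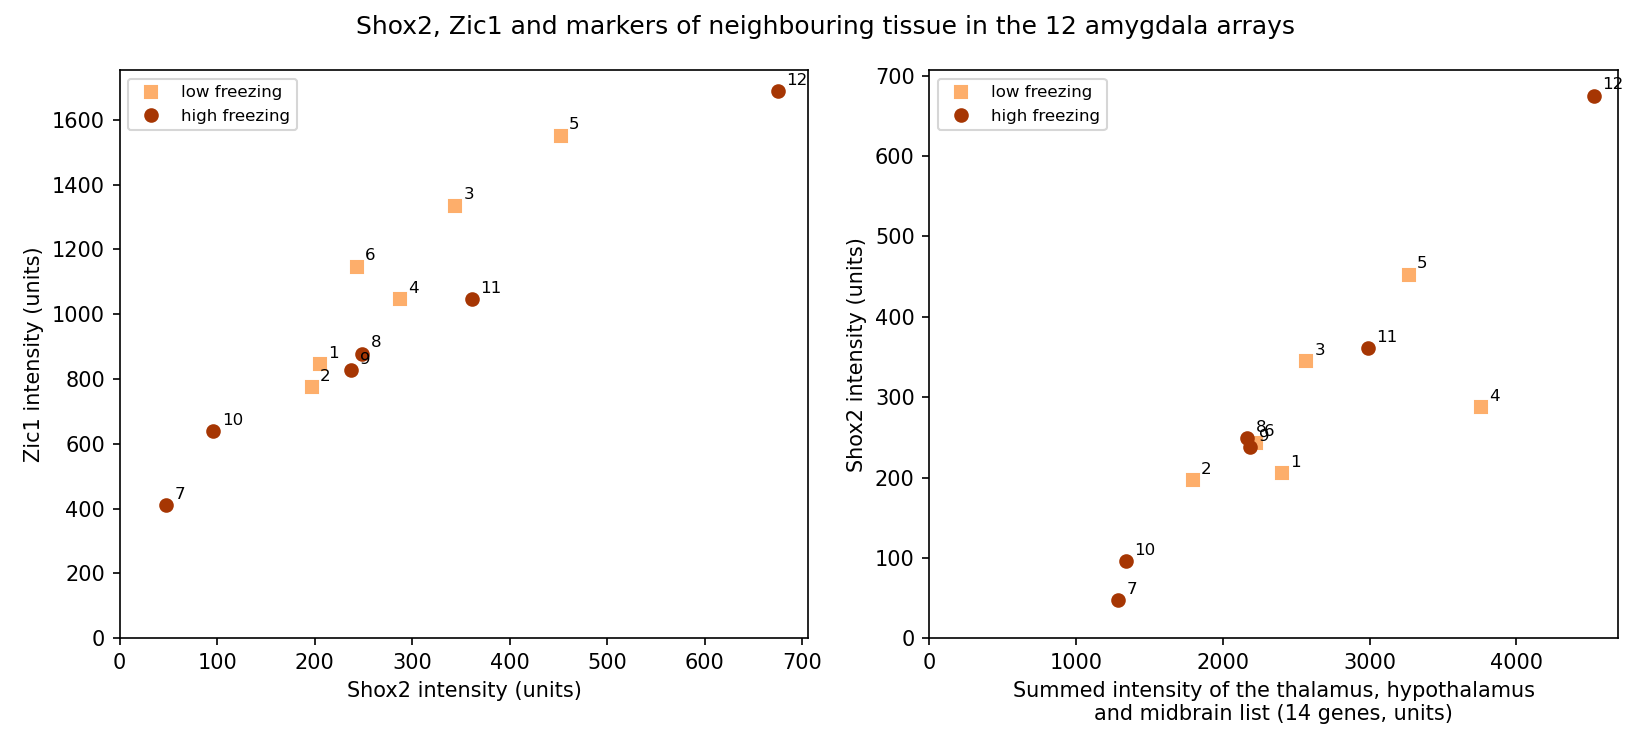
The left panel plots Zic1 against Shox2 intensity and the right panel Shox2 against the summed intensity of 14 genes listed for thalamus, hypothalamus and midbrain, both in units, in the 12 amygdala arrays (squares low, circles high freezing, with the array's number beside each). Points run from high 7 at 47.91 units of Shox2 to high 12 at 675.1.

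Of 33 tested patterning factors outside the rule 16 (48.5%) were higher and 13 (39.4%) lower in the amygdala, where 31.7% and 24.6% of all genes were. The subpallial factor Isl1 was at 2.473 ± 2.84 units in the hippocampus, near the bottom of the scale, and at 270.7 ± 72.54 in the amygdala (SD, n = 12 each). Zfhx3 was 6.23-fold higher, and the pallial factors Fezf2, Tbr1 and Emx2 were 5.21-, 2.90- and 2.57-fold lower. The same list holds Cux1 (1.84-fold) and Cux2 (1.79-fold) among its higher genes and Bcl11b (1.73-fold) among its lower ones. The list was not divided into pallial and subpallial factors, so no pattern by territory is read from the genes named. Binding partners and cofactors had 5 higher (23.8%) and 8 lower (38.1%) of 21. Among those that work with LIM homeodomain proteins or with Six3 and its relatives, Lmo1, Lmo3, Lmo4, Ldb2 and Eya1 were 2.65-, 1.89-, 2.43-, 1.24- and 3.06-fold lower, Lmo2 and Dach1 were 1.45- and 1.54-fold higher, and Ldb1, Eya3 and Eya4 did not pass. Of 17 genes that members are known to act on, such as the myelin gene Mag (4.95-fold higher) and the choroid plexus gene Ttr (2.80-fold), 15 (88.2%) were higher and 1 (5.88%) was lower.

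High and low freezing arrays differed at none of the 72 members in either region in limma after adjustment. Of all genes 0.0321% were called in the hippocampus, 0.0561% in the amygdala and 0% for the interaction, which asks whether the freezing difference differs between the regions. At an unadjusted p under 0.05 stood 10 members in the hippocampus (13.9%, against 12.1% of all genes), 4 in the amygdala (5.56% against 10.1%) and 6 for the interaction (8.33% against 5.59%). The hippocampal share was near the background, the amygdalar one below it and that of the interaction above it, each from few genes.

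Sox10 came nearest to the threshold. In the amygdala it was at 525.7, 629.9 and 717.7 units in the low freezing group (lowest, median and highest of 6 arrays) and 416.7, 479.8 and 531.1 in the high group. Only the highest value of the high group, 531.1, reached the range of the low group. The log2 difference was -0.38 ± 0.08 SE (95% interval -0.55 to -0.21, adjusted p = 0.06183 in limma). In the hippocampus the groups were at 114.2 ± 13.94 and 116 ± 8.82 units (SD, n = 6 each), a log2 difference of 0.02, and the interaction did not pass (-0.41, adjusted p = 0.7724 in limma). The other 2 probe sets of Sox10 above the filter, which are dimmer, had amygdalar differences of -0.03 and -0.10 (adjusted p = 0.9524 and 0.9151 in limma), and the oligodendrocyte list overlapped between the groups, at 41680 to 50520 units in the low and 39070 to 54120 in the high group, with 1 of 10 genes above 0. Of 35 alternatives 29 left Sox10 uncalled, among them the mean of its probe sets (log2 -0.17, adjusted p = 0.5275 in limma) and the amygdala fitted alone (adjusted p = 0.1683 in limma). The adjusted p was under the threshold in limma with an offset of 64 (0.03799), with arrays centred on their median (0.045) and without amygdala low 6, high 7 or high 12 (0.03393, 0.04373 and 0.04318), and without high 7 and 12 together (0.03091).

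The next members in the amygdala were dim or differed little. Zic5 was at 18.14, 30.2 and 38.06 units in the low and 30.31, 47.94 and 59.29 in the high group (log2 0.43, adjusted p = 0.2395 in limma), and its other tested probe set was at -0.01. Pou5f2, a gene known from testis, was at 32.3, 61.05 and 70.31 units in the low and 69.57, 79.69 and 116.1 in the high group (log2 0.44, adjusted p = 0.2467 in limma). It had a like difference in the hippocampus, where the groups did not overlap, at 36.7, 64.79 and 74.85 units in the low and 77.62, 82.63 and 87.37 in the high group (log2 0.43, adjusted p = 0.2271 in limma). The interaction estimate for this gene was 0.01 with a 95% interval from -0.41 to 0.44. Foxn3 and Foxc1 had amygdalar differences of -0.19 and 0.28 (adjusted p = 0.4615 and 0.4789 in limma).

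In the hippocampus Pax6 had the smallest p among the members. It was at 41.21, 46.85 and 52.16 units in the low and 49.56, 58.63 and 89.67 in the high group, with overlap (log2 0.31, 95% interval 0.10 to 0.52, adjusted p = 0.2036 in limma). At its second probe set the difference was -0.01. Irx1 was at 3.852, 6.911 and 20.67 units in the low and 9.097, 19.1 and 32.2 in the high group (log2 0.54, adjusted p = 0.2288 in limma). Foxo3 and Sox12 had differences of 0.26 and 0.31 (adjusted p = 0.248 and 0.3168 in limma), and at the second probe sets of both the values were 0.00 and -0.08. Besides Sox10 the smallest interaction p-values were those of Pax6, Irx1, Zic1 and Nkx2-3, with estimates of -0.40, -0.65, -0.76 and 0.70 (adjusted p from 0.7724 to 0.8153 in limma). Zic1 was at 150.3, 178.6 and 237.3 units in the low and 156.7, 234.8 and 357.2 in the high freezing hippocampus, and at 774.8, 1097 and 1551 in the low and 410.8, 852.3 and 1688 in the high freezing amygdala, with overlap in both.

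The signs of these small differences leaned 1 way in the hippocampus. There 51 of 72 members, or 70.8%, were above 0 in the high freezing group, with a median log2 difference of 0.09, against 50.4% of all genes. In the amygdala it was 36 of 72, or 50%, against 49.3%. Among the 31 members that were higher in the amygdala than in the hippocampus 26 were above 0 in the hippocampus and 11 in the amygdala. The like shares among all genes called higher were not counted. The mean log2 value of these 31 genes per hippocampus array was 5.787 to 6.018 in the low and 5.921 to 6.093 in the high group, so the groups overlapped. The list of striatum and central amygdala summed to 973.5 to 1104 units in the low and 1017 to 1305 in the high hippocampus arrays. For the list of thalamus, hypothalamus and midbrain the sums were 484.4 to 544.6 and 471 to 655.7. The part of these lists in the signs was not tested. The count of 51 of 72 moved with the scaling, to 46 of 72 with quantile normalization and to 40 of 72 with arrays centred on their median. With that centring 34.96% of all genes were above 0. No test was made of these counts.

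**Figure D5:**
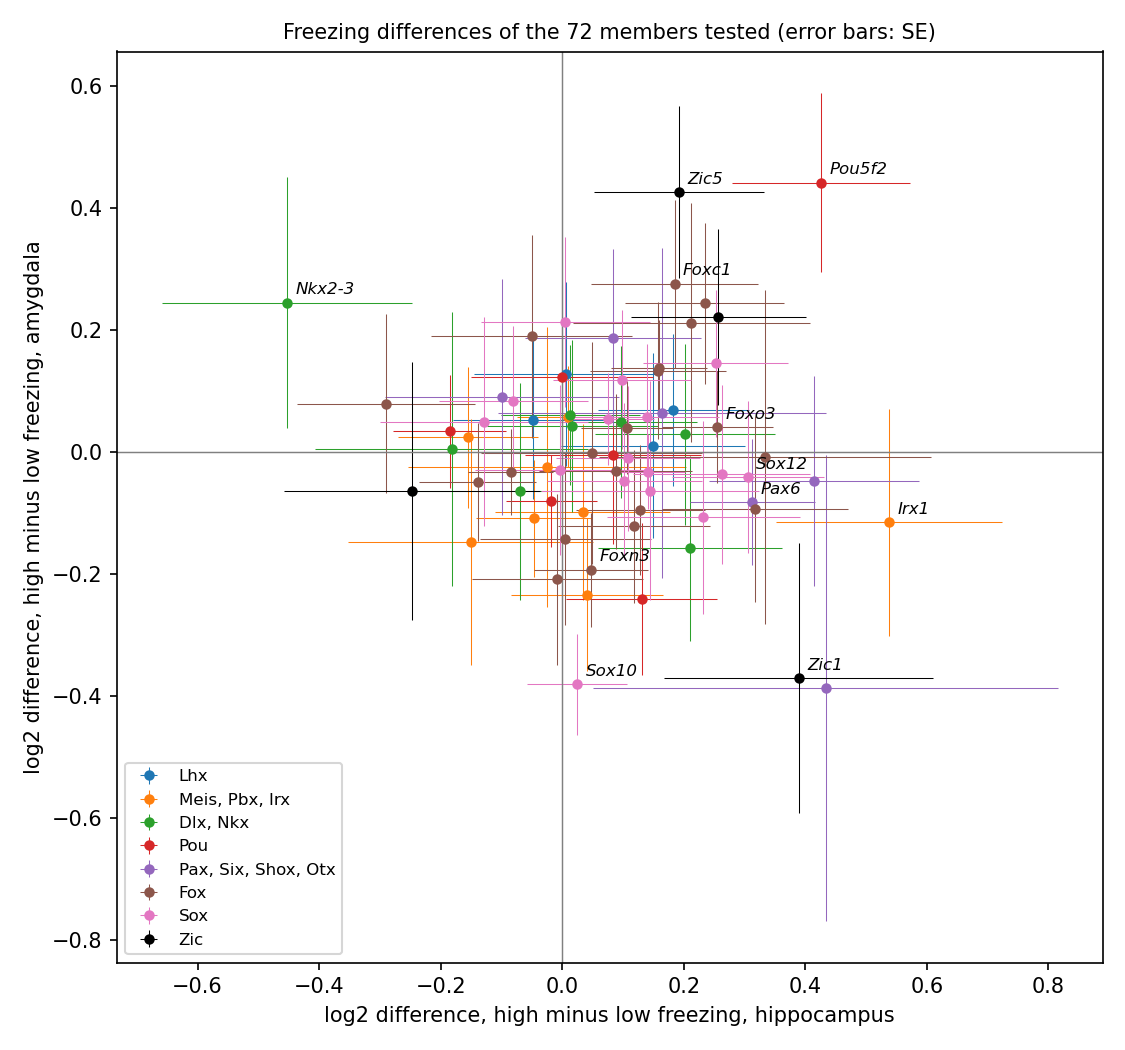
The log2 difference of high minus low freezing is plotted for the 72 members tested, in the hippocampus on the horizontal and in the amygdala on the vertical axis, with SE as error bars and the colour for the gene family. The members with the smallest p are named; Sox10 lies at 0.02 and -0.38, and none passed the threshold in either region.

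The 54 members left out as dim had means over all arrays between 2.19 and 27.99 units. They comprise 18 Fox genes, 10 of the Dlx and Nkx genes, 10 relatives of Pax6, Six3, Shox2 and Otx2, 5 Pou genes, 4 Lhx genes, 4 Irx genes and 3 Sox genes. Among them were Nkx2-1, the selector of the medial ganglionic eminence, Otx1, Pax3, Pax7, Lhx1, Lhx5, Foxa1, Foxa2 and Foxb1. In none of the 54 did the regions separate without overlap, and the highest single value was 69 units, for Nkx2-9. Just inside the filter lay Foxf2 and Irx1, and just outside it Pax5 and Nkx2-9. A low value on an array can come from a weak probe set as well as from little RNA.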

How the data were processed

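Total RNA of mouse hippocampus and amygdala was measured on 24 Affymetrix 1-colour arrays, with groups taken from the labels. The deposited values are linear intensity values for 45101 probe sets; the software that made them and any normalization are not given in the sources used here, and no depth exists for arrays, whose number limits the precision. Control probe sets (64) and the dimmest 40% by mean log2 value were left out, which kept 27022 probe sets with mean intensity from 23.35 units. Values were taken as log2(intensity + 16) without further normalization. The limma package (3.58.1, under R 4.3.3) estimated 4 group means over all arrays, with a variance prior that follows intensity and 20 residual degrees of freedom, and was tested on simulated data. Its two-sided p-values were adjusted by Benjamini-Hochberg across these probe sets, with a threshold of 0.05. Fold changes come from that fit.

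Symbols came from the platform annotation, and only probe sets with 1 symbol were used. Gene order and the windows before gene starts came from RefSeq on GRCm38.p6, which the deposited table does not name as its build. Members, lists and tests were chosen with earlier results of these data known. By rule, the genes described are the 15 highest and up to 15 lowest regional differences past the threshold, the brightest member of each family, neighbouring members and the 5 smallest p-values of each freezing comparison, 41 genes. Other members are named after their values were seen, to account for all 72. Named genes of the other lists were chosen in the same way.

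Alternatives were offsets of 1 and 64, quantile normalization, centring on the median, no filter, leaving out the dimmest 60%, no trend, each region alone, the array number as a block, averaging the probe sets of each gene and leaving out each array. Leaving out amygdala high 7 and 12 together was chosen after seeing the data.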

Additional observations from a re-analysis of the deposited data

Results flagged for a closer look

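Of 164 groups of 6 arrays for 41 members, 6 (3.66%) held an array whose gap to the next exceeded Dixon's 95% limit, where chance gives about 1 in 20. In hippocampus high 7, Meis1 was at 14.98 units with the other arrays of its group between 2.215 and 3.62, and Dlx1 was at 128.8 units with the others between 100.9 and 110. In amygdala high 12, Lhx9 was at 44.07 units with the others between 17.21 and 24.74. Foxk1 was at 175.7 units in amygdala low 2, against 136.8 to 150.6 in the rest. Foxo3 was at 168.7 units in amygdala high 9, below the 215.3 to 236.4 of the others. Pou5f2 was at 32.3 units in amygdala low 5, below the others at 59.43 to 70.31.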

How the results depend on the processing

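Of 38 members described between the regions, 30 were called, and 29 of these kept their direction and their side of the threshold under all alternatives that could test them. The exception was Foxo3, at -0.08 (adjusted p = 0.2249) with the mean of its probe sets and from -0.19 to -0.14 with 1 array left out. Most of the 30 were chosen for the size of this same difference, so that they stayed called is little support. Irx1, Lhx8, Meis1, Nkx6-2, Otx2, Shox2 and Zic4 among them passed the filter only through the amygdala, and nothing is read from their calls. The number of members called, 42, was 26 of 41 tested with the dimmest 60% left out, 16 of them higher, and 42 to 44 with 1 array left out. Among members not called, Foxf2 had -0.01388 with arrays centred on their median, Zic5 changed sign with 1 array left out, from -0.04805 to 0.02345, and Dlx1 from -0.07696 to 0.03798. Dlx2 and Zic2 passed without some arrays, for instance without hippocampus low 1 and amygdala high 7 (log2 0.32 and 0.26). The amygdalar freezing count was 1, Sox10, with an offset of 64, with median centring and without amygdala high 7 and 12 together (adjusted p = 0.03091), and 0 to 1 with 1 array left out; the cause was not tested. The counts for the hippocampus and the interaction were 0 in all of them. The number of an array in its title was checked as a pairing of the regions: over 12 numbers the correlation of deviations was -0.0791 to 0.0865, none above 0.1, and 5 of the 12 correlated best with their own number, a hint from the data and not from the design. The labels do not say whether equal numbers mean the same animal, and the numbers were not used as pairs. With the replicate block 43 members were called between the regions, and none for freezing.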
